A study of Mus musculus with 24 samples.

Results

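The potassium channel genes are the protein-coding genes of the mouse whose symbol starts with Kcn, which code for the pore subunits of potassium channels and for their auxiliary subunits. They were chosen by symbol alone, and 94 of the 52350 genes in each library met the rule. Their RNA was measured in hearts of 24 male wild-type C57Bl/6 mice aged 12 weeks, in 4 groups of 6 mice each. ZT12-EX mice ran a single treadmill bout at ZT12, the start of the active phase, and ZT12-SED mice were sedentary at that time. ZT0-EX mice ran the same bout at ZT0, the start of the rest phase, and ZT0-SED mice were sedentary at that time. ZT counts hours from lights on, all mice had 12 h of light a day, and habituation to the treadmill preceded the bout, which lasted 60 min at a speed of 10 m/min on a 0% grade. The labels do not say how long after the bout the hearts were taken or whether atria were removed. In each group, replicates 1 to 3 were sequenced on flow cell 1 and replicates 4 to 6 on flow cell 2, per the labels. Handling in the dark phase was done under red light.

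Potassium channels carry the outward currents that end the cardiac action potential and hold the resting potential of the muscle cell. Voltage-gated (Kv) channels open on depolarisation and shape repolarisation, inward rectifiers (Kir) set the resting potential or answer to ATP and acetylcholine, two-pore channels carry a background leak, and a further class opens on calcium or sodium ions. Auxiliary subunits, such as the KChIP and MinK-related proteins, do not form the pore and change how much channel reaches the membrane or how fast it gates. In rodent hearts the transient outward current of Kv4 pores with Kcnip2 and the slower current of Kcna5 are known to carry much of repolarisation, and the heart's repolarisation is known to follow the time of day.

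Library totals lay between 9697334 and 23067191 counts, and the potassium channel genes held between 0.0332% and 0.113% of them. Levels below are in CPM, read counts relative to library size after TMM scaling, and levels of different genes are compared only as CPM per kilobase of exon. A count of 3 corresponded to 0.13 CPM in the library where it weighed least and to 0.575 CPM in ZT12-SED replicate 1, so small differences below 1 CPM rest on few reads. Markers of heart muscle were present in every library, since 8 cardiomyocyte genes such as Myh6 and Tnnt2 summed to between 19700 and 111000 CPM. Atrial markers summed to between 51.1 and 8430 CPM over the hearts. In 6 libraries of flow cell 2 (ZT12-EX 6, ZT12-SED 6, ZT0-EX 4 to 6 and ZT0-SED 6) 12 genes of fast skeletal muscle stood far above the rest, and those 12 genes summed to at most 3170 CPM in them and to no more than 29.5 CPM in any library of flow cell 1. ZT12-EX 4, ZT12-SED 1 and ZT12-SED 2 correlated least with the other libraries, and mitochondrial genes took between 2.7% and 55.1% of the counts of a library. In bulk tissue, fewer cells of a type and less RNA per cell cannot be told apart.

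A gene was tested if it passed a filter on low counts, which 49 of the 94 potassium channel genes did: 21 of 40 Kv pore genes, 8 of 13 auxiliary genes, 7 of 15 inward rectifiers, 5 of 14 two-pore genes and 8 of 12 ion-activated genes. The auxiliary class here holds auxiliary genes of voltage-gated channels only. The auxiliary Kcnmb genes of calcium-activated channels are counted as ion-activated. The whole set is uneven. Kcnip2, the KChIP subunit that raises Kv4 current in heart, had the highest level at 30.6 CPM per kilobase, and the 10 highest genes held 81.1% of the summed level per kilobase. After it came Kcnk3, an acid-sensitive two-pore channel, at 24.2 CPM per kilobase. The ATP-sensitive pores Kcnj11 and Kcnj8 stood at 16.8 and 12.9 CPM per kilobase, and the acetylcholine-activated pores Kcnj5 and Kcnj3 at 12.4 and 12.3 CPM per kilobase. Kcnj2, a strong inward rectifier that holds the resting potential, reached 5 CPM per kilobase. Inward rectifiers together held 38.3% of the summed level per kilobase, Kv pores 21.5%, auxiliary subunits 21.2%, two-pore genes 15.8% and ion-activated genes 3.22%.

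Among Kv pores the highest was Kcng2 at 11.4 CPM per kilobase, a subunit that makes no channel by itself and joins Kv2 pores. Kcna5, the pore of an ultrarapid delayed rectifier, followed at 6.09 CPM per kilobase, and Kcnh2, the pore of the rapid delayed rectifier, at 5.8 CPM per kilobase. Kcnq1, the pore of the slow delayed rectifier, stood at 3.98, and the Kv4 pores Kcnd2 and Kcnd3 at 2.27 and 1.17 CPM per kilobase. The partner of Kcnq1, the MinK subunit Kcne1, reached 1.43 CPM per kilobase, and its relative Kcne4, which damps Kv currents, 1.09 CPM per kilobase. The levels of the ion-activated class were led by Kcnn1, a small-conductance calcium-activated pore, at 2 CPM per kilobase, then by the sodium-activated pore Kcnt2 at 1.28 and the calcium-activated pore Kcnn2 at 1.02 CPM per kilobase. Of all 94 genes, 22 were above 1 CPM per kilobase. Kcnj3, Kcnj2, Kcnq1, Kcnd2 and Kcnd3 are named for their levels after these were seen.

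**Figure D1:**
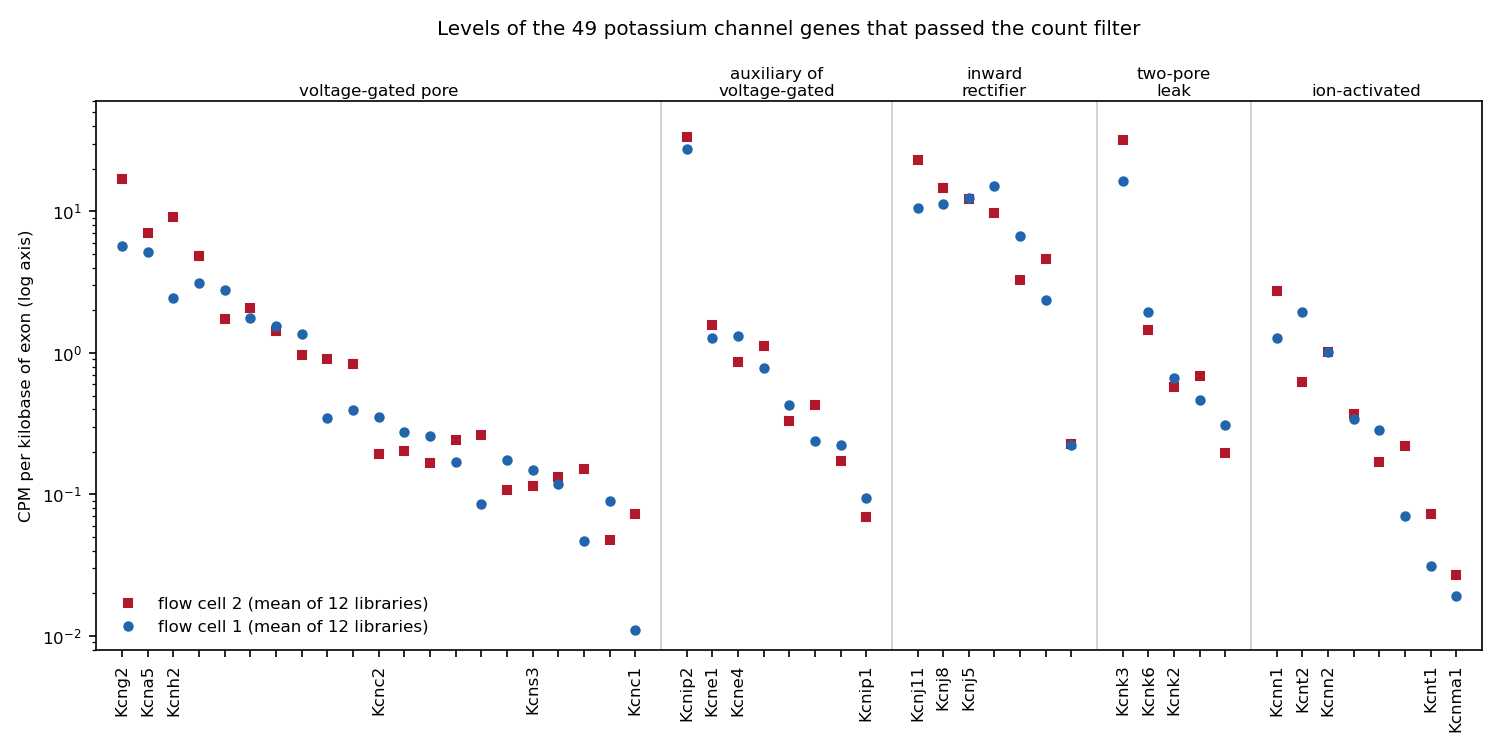
Mean level of the 49 tested potassium channel genes in CPM per kilobase of exon (vertical log axis), by class and in falling order within it, with names for the 20 genes described singly and for Kcnc1. Red squares are means of 12 libraries of flow cell 2 and blue circles of 12 libraries of flow cell 1. Kcnip2, Kcnk3 and Kcnj11 lead their classes, and Kcnh2, Kcng2 and Kcnc1 stand well apart between the flow cells.

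The other 45 genes were not tested, of which 8 had no read in any library: the Kv pore genes Kcna10, Kcng3 and Kcnv1, the inward rectifier Kcnj1, the two-pore genes Kcnk15, Kcnk16 and Kcnk18, and the auxiliary gene of calcium-activated channels Kcnmb3. The remaining 37 had reads but failed the filter. Subfamilies differed in how many members were measured. All 4 Kv3 genes, all 3 Kv4 genes and all 4 genes of the small- and intermediate-conductance calcium-activated subfamily were tested, against 3 of 10 silent Kv genes, 2 of 8 genes of the Kcnh subfamily and 2 of 5 Kv7 genes.

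The first comparison asked how a bout of running changed the heart's RNA at the start of the rest phase. Kcna5 rose with exercise at ZT0. It lay between 19.3 and 34.9 CPM with a median of 26.7 in ZT0-EX hearts, against 6.2 to 13.8 CPM with a median of 8.15 in ZT0-SED hearts. Every exercised heart was above every sedentary heart. The log2 fold change was 1.55 ± 0.25 (SE), with an adjusted p of 0.00101 (edgeR quasi-likelihood test, Benjamini-Hochberg over 15294 genes). Kcna5 was the only one of the 49 genes that passed, and 1.08% of all genes tested passed in this comparison. It was also the only one whose 2 groups did not overlap, which held for 1.6% of all genes tested.

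The rise of Kcna5 at ZT0 was seen on each flow cell. On flow cell 2 its mean was 32.5 CPM in ZT0-EX and 9.65 CPM in ZT0-SED, a log2 difference of 1.8, and on flow cell 1 it was 21.2 CPM in ZT0-EX and 8.29 CPM in ZT0-SED, a log2 difference of 1.36. All 3 ZT0-EX libraries of flow cell 2 held skeletal muscle transcripts, against 1 of 3 in ZT0-SED, and that ZT0-SED library had the group's highest Kcna5 value of 13.8 CPM. On flow cell 1 the 12 skeletal muscle genes summed to between 23 and 29.5 CPM in ZT0-EX and between 20.5 and 27.9 CPM in ZT0-SED, while Kcna5 did not overlap there. Atrial markers ranged from 173 to 2670 CPM in ZT0-EX and from 299 to 3990 CPM in ZT0-SED. Of 13 alternative analyses 10 kept the call. In the other 3 the estimate stayed of similar size but missed the threshold. It was 1.41 (adjusted p = 0.0576) without the 6 libraries with skeletal muscle transcripts, 1.35 (adjusted p = 0.254) on flow cell 1 alone and 1.72 (adjusted p = 0.092) on flow cell 2 alone. Leaving out the 6 libraries removes every ZT0-EX heart of flow cell 2. That fit and the fit on flow cell 1 alone therefore rest on the same 3 ZT0-EX hearts and are not separate checks.

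**Figure D2:**
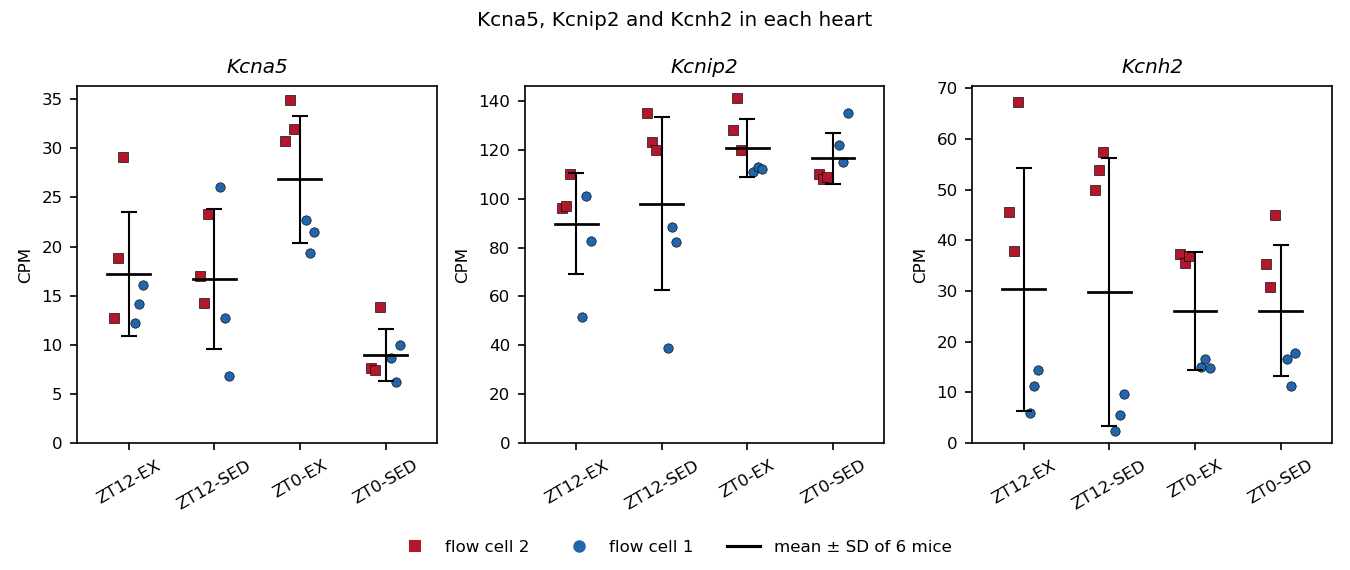
Levels of Kcna5, Kcnip2 and Kcnh2 in CPM (vertical axis) in each of 24 hearts, by group (horizontal axis). Red squares are hearts of flow cell 2, blue circles hearts of flow cell 1, and black bars the mean ± SD of 6 mice. The 6 ZT0-EX values of Kcna5 lie between 19.3 and 34.9 CPM, above all 6 ZT0-SED values, and Kcnh2 separates by flow cell in every group.

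The promoter of Kcna5 is shown because it is the only one of the 49 genes that passed with exercise at ZT0. The sequence is that of RefSeq on the GRCm38.p6 build, chr6:126535506-126535805 on the minus strand, from 250 bases before to 50 bases after the start of the gene. Capitals mark its one match, at base 192, to the glucocorticoid response element, the spaced palindrome that the glucocorticoid receptor binds.

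Kcna5: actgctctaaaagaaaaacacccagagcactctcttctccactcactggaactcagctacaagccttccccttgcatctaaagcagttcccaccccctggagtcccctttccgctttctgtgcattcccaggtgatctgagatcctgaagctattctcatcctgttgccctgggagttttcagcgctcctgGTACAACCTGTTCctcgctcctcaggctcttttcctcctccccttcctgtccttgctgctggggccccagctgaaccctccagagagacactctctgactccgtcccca

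Beside Kcna5, 8 potassium channel genes had an unadjusted p below 0.05 at ZT0, which makes 9 of 49, against 10.4% of all genes tested. Kcne4 had 2.34 to 4.58 CPM with a median of 3.15 in ZT0-EX hearts, against 1.3 to 2.41 CPM with a median of 2.24 in ZT0-SED hearts. The exercised hearts were higher on each flow cell taken alone, and the groups overlapped slightly when both were pooled. Its log2 fold change was 0.66 ± 0.26 (adjusted p = 0.364). Kcnj8, the ATP-sensitive pore of vascular muscle and pericytes, had 22.6 to 31.7 CPM with a median of 29.6 in ZT0-EX, against 31 to 50.5 CPM with a median of 35.3 in ZT0-SED. It was lower in the exercised hearts on each flow cell alone, with a log2 fold change of -0.48 ± 0.19 (adjusted p = 0.396). Groups that did not overlap, in the same direction on each flow cell, were found for 3 of 49 genes, against 5.02% of all genes tested. Smooth muscle and pericyte markers summed to between 691 and 746 CPM in ZT0-EX and between 512 and 862 CPM in ZT0-SED. The fold changes of the 49 genes had a median of 0.19 at ZT0, with 40 (81.6%) above 0. Over all genes tested the median was -0.01, with 48.9% above 0. ZT0-EX 4 to 6 and, in ZT0-SED, only ZT0-SED 6 held skeletal muscle transcripts, and their part in this was not tested. By class the medians were 0.36 for 21 Kv pores, 0.07 for 8 auxiliary genes, 0.12 for 7 inward rectifiers, 0.05 for 5 two-pore genes and 0.21 for 8 ion-activated genes.

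Kcne4 is set beside Kcna5 for its promoter. It lies at chr1:78816661-78816960 on the plus strand of GRCm38.p6 (RefSeq), and capitals mark an E-box CACGTG at base 197, the letters that clock proteins are known to bind.

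Kcne4: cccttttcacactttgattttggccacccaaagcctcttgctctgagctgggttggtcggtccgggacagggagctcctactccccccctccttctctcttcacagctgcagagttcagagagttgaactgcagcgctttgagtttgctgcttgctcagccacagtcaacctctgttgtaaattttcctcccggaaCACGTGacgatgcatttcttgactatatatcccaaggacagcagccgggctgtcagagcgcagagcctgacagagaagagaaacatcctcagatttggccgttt

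The same question at the start of the active phase gave no call. None of the 49 genes passed for exercise at ZT12 in the edgeR test, where 0.294% of all genes tested did, and 7 had an unadjusted p below 0.05, against 16.4% of all genes tested. DESeq2 called 1 of them and limma-voom 0. No potassium channel gene had groups that did not overlap, against 0.262% of all genes tested. Kcna5 had 12.2 to 29.1 CPM with a median of 15.2 in ZT12-EX hearts, against 6.83 to 26.1 CPM with a median of 15.7 in ZT12-SED hearts. The groups overlapped over most of their range, and the log2 fold change was 0.04 ± 0.25 (adjusted p = 0.937). The smallest adjusted p belonged to Kcnj15, an inward rectifier named here after its values were seen. Kcnj15 had 0.649 to 3.04 CPM with a median of 1.77 in ZT12-EX, against 0.192 to 0.902 CPM with a median of 0.68 in ZT12-SED. Its log2 fold change was 1.53 ± 0.37 (adjusted p = 0.0848), and it was the gene that DESeq2 called. The median fold change of the 49 genes was 0.19, against 0.06 over all genes tested.

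Whether exercise acted differently at the 2 times was tested as the ZT12 effect minus the ZT0 effect. No potassium channel gene passed, and the share of all genes tested that passed was 0%. An unadjusted p below 0.05 was reached by 5 of 49 genes, against 8.02% of all genes tested, and DESeq2 and limma-voom called 0 of the 49 as well. For Kcna5 the difference was -1.51 ± 0.35, with an unadjusted p of 0.000248 and an adjusted p of 0.542. The difference for Kcna5 was -1.7 on flow cell 2, against -1.26 on flow cell 1. The rise of Kcna5 at ZT0 and its absence from the calls at ZT12 are therefore not shown to differ after adjustment over all genes.

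**Figure D3:**
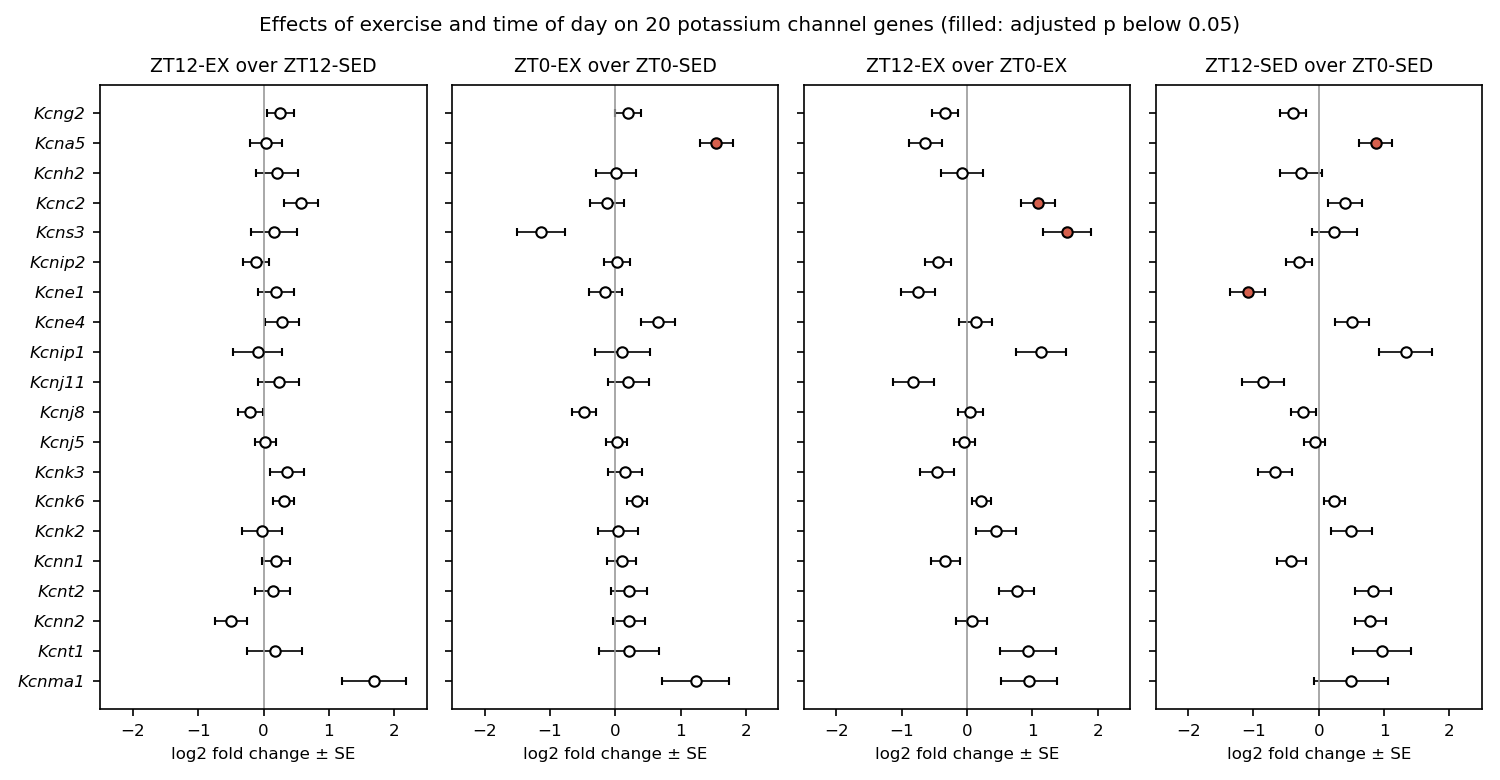
Log2 fold change with its SE (horizontal axis) of 20 potassium channel genes (rows, by class) in the 4 pairwise comparisons named above the panels. Filled points have an adjusted p below 0.05, which holds for Kcna5 with exercise at ZT0, for Kcnc2 and Kcns3 between exercised mice of the 2 times, and for Kcna5 and Kcne1 between sedentary mice of the 2 times.

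In sedentary mice 2 of the 49 genes differed between the times of day, against 5.2% of all genes tested. Kcne1 was lower at ZT12. It lay between 1.65 and 4.75 CPM with a median of 3.01 in ZT12-SED hearts, against 4.19 to 9.32 CPM with a median of 5.99 in ZT0-SED hearts. The groups overlapped a little when both flow cells were pooled and did not overlap on either flow cell alone, which held for 4 of 49 genes in the same direction on each, against 4.96% of all genes tested. Its log2 fold change was -1.09 ± 0.27 (adjusted p = 0.02), and the difference was -0.53 on flow cell 2, against -1.67 on flow cell 1. Kcna5 was higher at ZT12, with 6.83 to 26.1 CPM and a median of 15.7 in ZT12-SED, against 6.2 to 13.8 CPM and a median of 8.15 in ZT0-SED. The groups overlapped, and the log2 fold change was 0.87 ± 0.25 (adjusted p = 0.0452). The exercise comparison at ZT0 and the sedentary comparison use the same 6 ZT0-SED hearts, so the 2 calls of Kcna5 share the group in which it was lowest. Without the 3 libraries least correlated with the rest, of which 2 are ZT12-SED, the fold change of Kcna5 was 0.53 (adjusted p = 0.194), and with limma-voom it was 0.77 (adjusted p = 0.0655).

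2 further genes had sedentary groups that did not overlap, which held for 1.7% of all genes tested, without passing the test. Kcnn2, which carries a small-conductance calcium-activated current known in atrial muscle, had 7.64 to 17.6 CPM with a median of 8.74 in ZT12-SED, against 5.05 to 7.62 CPM with a median of 5.79 in ZT0-SED. Its log2 fold change was 0.79 ± 0.24 (adjusted p = 0.0576). Kcnj15 had 0.192 to 0.902 CPM with a median of 0.68 in ZT12-SED, against 1.2 to 1.66 CPM with a median of 1.37 in ZT0-SED. Every ZT12-SED heart was below every ZT0-SED heart, with a log2 fold change of -1.02 ± 0.37 (adjusted p = 0.0809). The sedentary count depended on which libraries were used, as it did over all genes. On flow cell 2 alone 0 of 49 potassium channel genes passed, against 0.231% of all genes tested there, and on flow cell 1 alone 18 of 46, against 43.5%. Without the 6 libraries with skeletal muscle transcripts 12 of 48 passed, against 20.1% of all genes. On flow cell 1 mitochondrial genes took 40.7% to 55.1% of the counts in ZT12-SED, against 25.5% to 34.2% in ZT0-SED, and endothelial markers summed to between 326 and 686 CPM in ZT12-SED, against 729 to 769 CPM in ZT0-SED. Their part in the sedentary results was not tested. The median fold change of the 49 genes was 0.02, against -0.01 over all genes tested.

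In exercised mice 2 of the 49 genes differed between the times of day, against 1.65% of all genes tested, and both were low in level. Kcnc2, a Kv3 pore best known from fast-firing neurons, had between 1.3 and 5.87 CPM with a median of 2.26 in ZT12-EX, against 1.04 to 2.01 CPM with a median of 1.22 in ZT0-EX. The groups overlapped, and did not overlap on either flow cell alone. Its log2 fold change was 1.09 ± 0.26 (adjusted p = 0.0252), 0.58 on flow cell 2, against 1.29 on flow cell 1. Kcns3, a silent subunit that joins Kv2 pores, had 0.238 to 0.846 CPM with a median of 0.562 in ZT12-EX, against 0.108 to 0.259 CPM with a median of 0.208 in ZT0-EX. The groups overlapped by a narrow margin and did not overlap on either flow cell alone, and the log2 fold change was 1.53 ± 0.37 (adjusted p = 0.0275). In sedentary hearts Kcns3 had 0.257 to 0.959 CPM with a median of 0.481 at ZT12, against 0.181 to 0.786 CPM with a median of 0.4 at ZT0. ZT0-EX was thus the lowest of its groups. In exercised mice 5 of 49 genes did not overlap in the same direction on each flow cell, against 4.05% of all genes tested. Kcns3 had between 2 and 15 reads in a library and 162 in all. Markers of nerve and glia, of which 3 of 8 passed the filter, summed to between 9.69 and 19.1 CPM in ZT12-EX and between 6.5 and 11.5 CPM in ZT0-EX. Their part in the result was not tested. Without the 6 libraries with skeletal muscle transcripts neither gene passed, at 1.24 (adjusted p = 0.178) for Kcnc2 and 1.48 (adjusted p = 0.23) for Kcns3, and with the replicate number as a block Kcns3 stood at 1.53 (adjusted p = 0.062).

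Kcnip2 was the 1 gene of 49 whose exercised groups did not overlap between the times, which held for 1.1% of all genes tested. It had 51.7 to 110 CPM with a median of 96.5 in ZT12-EX, against 111 to 141 CPM with a median of 117 in ZT0-EX. The log2 fold change was -0.44 ± 0.2 (adjusted p = 0.304), -0.36 on flow cell 2, against -0.56 on flow cell 1. In sedentary mice Kcnip2 had 39.1 to 135 CPM with a median of 104 at ZT12, against 108 to 135 CPM with a median of 112 at ZT0. There the lowest heart was ZT12-SED 1, and the fold change of -0.3 ± 0.2 (adjusted p = 0.274) was 0.21 on flow cell 2, against -0.91 on flow cell 1. The median fold change of the 49 genes between exercised groups was 0, against 0.02 over all genes tested.

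Averaged over both times of day, 2 of the 49 genes rose with exercise, against 2.24% of all genes tested. Kcna5 had an average log2 fold change of 0.8 ± 0.18 (adjusted p = 0.012), which was 0.62 (adjusted p = 0.129) with a correction for GC content and 0.67 (adjusted p = 0.109) without the 6 libraries with skeletal muscle transcripts. Kcnma1, the pore of the large-conductance calcium-activated channel that relaxes vascular smooth muscle, had an average of 1.46 ± 0.35 (adjusted p = 0.025). It had 0.324 to 1.07 CPM with a median of 0.761 in ZT12-EX, against 0 to 0.601 CPM with a median of 0.199 in ZT12-SED. At ZT0 it had 0.0528 to 1.09 CPM with a median of 0.37 in ZT0-EX, against 0.0602 to 0.297 CPM with a median of 0.165 in ZT0-SED. The groups overlapped at both times, and the gene had at most 21 reads in a library and 166 in all. Kcnma1 did not pass with limma-voom (1.3, adjusted p = 0.0614) or without the 6 libraries with skeletal muscle transcripts (1.3, adjusted p = 0.148). Among the 8 smooth muscle and pericyte markers 1 rose in the same comparison, 4 had an unadjusted p below 0.05 and DESeq2 called 3. For exercise at ZT12, 5 of the 8 had an unadjusted p below 0.05, with 0 called by edgeR, 3 by DESeq2 and 0 by limma-voom. In the average over both times their median fold change was 0.41, against 0.03 over all genes tested. Their part in the result was not tested.

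Averaged over both treatments, 8 of the 49 genes differed between ZT12 and ZT0, against 13.7% of all genes tested. Higher at ZT12 were 5, against 6.04% of all genes tested, and lower were 3, against 7.66%. The 5 higher genes were Kcnip1 (1.23 ± 0.28, adjusted p = 0.00585), Kcnt2 (0.8 ± 0.19, adjusted p = 0.0101), Kcnc2 (0.75 ± 0.18, adjusted p = 0.0108), Kcns3 (0.88 ± 0.25, adjusted p = 0.024) and Kcnt1 (0.95 ± 0.31, adjusted p = 0.0444). Both sodium-activated pores, Kcnt1 and Kcnt2, were among them, but the calls of Kcnt1 and Kcns3 were each lost in 5 of 10 alternatives, with adjusted p up to 0.498 for Kcnt1 and 0.133 for Kcns3. The mean of Kcns3 was 0.187 CPM in ZT0-EX, against 0.417 CPM in ZT0-SED, 0.547 CPM in ZT12-EX and 0.517 CPM in ZT12-SED. Its average difference thus came mostly from a low ZT0-EX group. Kcnt2 had 2.6 to 23.3 CPM with a median of 10.7 in ZT12-EX, against 2.6 to 12.1 CPM with a median of 7.09 in ZT0-EX. In sedentary hearts it had 4.14 to 19 CPM with a median of 9.97 at ZT12, against 2.2 to 11 CPM with a median of 4.38 at ZT0. In ZT12-EX, ZT12-SED and ZT0-EX every heart of flow cell 2 was below every heart of flow cell 1, while the flow cells overlapped in ZT0-SED. The average difference was 0.54 on flow cell 2, against 1.06 on flow cell 1. Markers of fibroblasts also ran with flow cell and time. On flow cell 1 the 5 markers summed to between 2020 and 3200 CPM in ZT12-EX, against 1370 to 1720 CPM in ZT0-EX, and between 2270 and 3480 CPM in ZT12-SED, against 1260 to 1800 CPM in ZT0-SED. On flow cell 2 they summed to between 288 and 1200 CPM over all groups. Their part in the result was not tested. Kcnip1, a KChIP subunit best known from neurons, had 0.433 to 0.856 CPM with a median of 0.727 in ZT12-EX, against 0.104 to 0.476 CPM with a median of 0.333 in ZT0-EX. Kcnip1 and Kcnt1 had at most 19 and 29 reads in a library.

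The 3 genes lower at ZT12 were Kcne1 (-0.92 ± 0.19, adjusted p = 0.00259), Kcnj11 (-0.83 ± 0.23, adjusted p = 0.0181) and Kcnk3 (-0.57 ± 0.19, adjusted p = 0.0446). Kcne1 had 2.03 to 7.46 CPM with a median of 3 in ZT12-EX, against 4.86 to 6.06 CPM with a median of 5.76 in ZT0-EX. The value of 7.46 CPM came from ZT12-EX 4, and the other 5 ZT12-EX hearts were below every ZT0-EX heart. Kcnj11, the pore of the ATP-sensitive channel of heart muscle, had 14.2 to 118 CPM with a median of 42.8 in ZT12-EX, against 56.2 to 111 CPM with a median of 81.2 in ZT0-EX. In sedentary hearts it had 9.02 to 99.2 CPM with a median of 45 at ZT12, against 45.9 to 105 CPM with a median of 60.2 at ZT0. Its average difference was -0.19 on flow cell 2, against -1.6 on flow cell 1, and that of Kcnk3 was -0.17 on flow cell 2, against -1.04 on flow cell 1. With each library corrected for its dependence on GC content, Kcnj11 stood at -0.4 (adjusted p = 0.102) and Kcnk3 at -0.15 (adjusted p = 0.529), whereas Kcne1 stood at -0.7 (adjusted p = 0.00184). The size of the Kcne1 difference also moved with the flow cell. Its means were 4.68 CPM in ZT12-EX and 5.22 CPM in ZT0-EX on flow cell 2, against 2.41 and 5.95 CPM on flow cell 1. The call of Kcne1 was kept in 11 of 12 alternatives, with averages from -1.55 to -0.34 and adjusted p up to 0.836. On flow cell 2 alone 0 of the 49 genes passed for the average time of day, where 0.699% of all genes did, and on flow cell 1 alone 25 of 46, where 47% of all genes did.

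**Figure D4:**
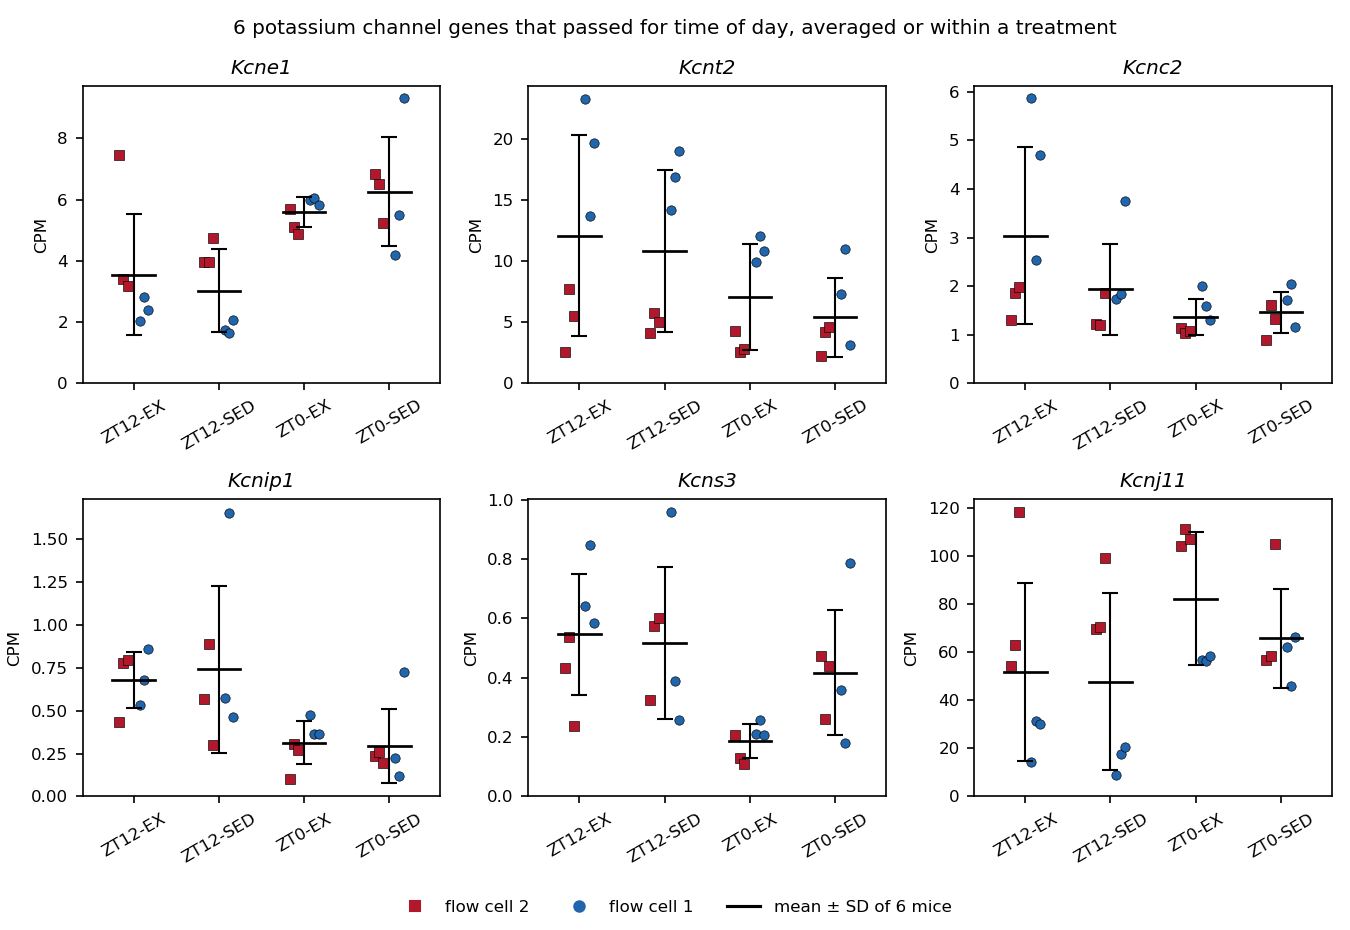
Levels in CPM (vertical axes) of Kcne1, Kcnt2, Kcnc2, Kcnip1, Kcns3 and Kcnj11 in each of 24 hearts, by group (horizontal axes). Red squares are hearts of flow cell 2, blue circles hearts of flow cell 1, and black bars the mean ± SD of 6 mice. For Kcne1, 5 of 6 ZT12-EX hearts lie below all ZT0-EX hearts and ZT12-EX 4 lies above them at 7.46 CPM, while ZT12-SED 6 at 4.75 CPM lies above the lowest ZT0-SED heart at 4.19 CPM, and the ZT12 values of Kcnt2 split by flow cell.

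The promoter of Kcnt2 stands for the genes higher at ZT12 and is printed as a case without any of the motifs searched. It lies at chr1:140245468-140245767 on the plus strand of GRCm38.p6 (RefSeq).

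Kcnt2: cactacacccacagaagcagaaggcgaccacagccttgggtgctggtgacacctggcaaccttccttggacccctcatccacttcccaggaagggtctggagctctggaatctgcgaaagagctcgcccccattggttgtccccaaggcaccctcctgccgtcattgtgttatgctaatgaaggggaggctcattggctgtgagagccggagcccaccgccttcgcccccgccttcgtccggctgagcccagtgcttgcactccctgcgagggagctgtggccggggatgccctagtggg

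5 motifs were searched on both strands in these windows of 300 bases. RefSeq's table held 52 windows of 35 of the 49 tested genes and 32851 windows in all. The E-box CACGTG was in 11.5% of the windows of the tested genes (Kcnab1, Kcne4, Kcnj2, Kcnk5 and Kcnn4) and in 7.15% of all windows. The glucocorticoid response element was in 1.92% of the windows of the tested genes, that of Kcna5 alone, and in 0.475% of all windows. The D-box letters TTATGTAA or TTACGTAA, the cyclic AMP element TGACGTCA and the heat shock element were in none of the windows of the tested genes and in 1.06%, 1.79% and 0.603% of all windows. CACGTG, TGACGTCA and TTACGTAA have the letters ACGT in common. A match is a stretch of letters and not a site shown to be bound.

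Over all 24 hearts the coefficient of variation of the 49 genes had a median of 47.7%, against 41.5% over all genes tested. Kcnj5 varied least, with a coefficient of variation of 16.6% and a range of 38.4 to 85.2 CPM, and its log2 fold change was at most 0.06 in size in each of the 4 pairwise comparisons. Kcnip2 followed with 22.9%, then the two-pore gene Kcnk6 with 26.7% and Kcnj8 with 29.3%. Kcnk6 had log2 fold changes of 0.31 ± 0.16 (adjusted p = 0.314) with exercise at ZT12 and 0.33 ± 0.15 (adjusted p = 0.474) at ZT0. Kcnc1, a Kv3 pore, varied most, with 127%. Kcnh2 varied by 66.3%, from 2.3 CPM in ZT12-SED 1 to 67.2 CPM in ZT12-EX 6. Its group medians were 26.1 CPM in ZT12-EX, 29.9 CPM in ZT12-SED, 26.1 CPM in ZT0-EX and 24.3 CPM in ZT0-SED. No pairwise comparison of Kcnh2 over both flow cells had an adjusted p below 0.556.

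The spread of Kcnh2 followed the flow cell. Its mean was 50.2 CPM on flow cell 2, against 10.5 CPM on flow cell 1 in ZT12-EX, 53.8 and 5.9 CPM in ZT12-SED, 36.6 and 15.5 CPM in ZT0-EX and 37 and 15.2 CPM in ZT0-SED. Every library of flow cell 2 was above every library of flow cell 1. The difference between the times of day had opposite signs on the flow cells. On flow cell 2 Kcnh2 had 50 to 57.5 CPM in ZT12-SED, against 30.7 to 45 CPM in ZT0-SED, and on flow cell 1 it had 2.3 to 9.76 CPM in ZT12-SED, against 11.3 to 17.8 CPM in ZT0-SED. In exercised mice it had 37.8 to 67.2 CPM in ZT12-EX, against 35.6 to 37.3 CPM in ZT0-EX, on flow cell 2, and 5.93 to 14.4 CPM in ZT12-EX, against 14.8 to 16.6 CPM in ZT0-EX, on flow cell 1. The groups did not overlap in any of these, each with 3 hearts against 3. The share of all genes that separate so on a single flow cell was not counted. In sedentary mice Kcnip2 had the same pattern, lower at ZT12 on flow cell 1 and higher on flow cell 2 without overlap. Kcnk3 and Kcnj11 did not overlap on flow cell 1 either. On flow cell 1 alone the sedentary difference of -1.31 passed (adjusted p = 0.0165). The log2 fold change of flow cell 2 over flow cell 1 was 1.95 ± 0.24 (adjusted p = 4.12e-07). Between the flow cells 33 of the 49 genes differed, against 68.1% of all genes tested, with 20 higher on flow cell 2, against 34.1%, and 13 lower, against 34%. Kcng2 was higher by 1.62 ± 0.14 and Kcnc1 by 2.68 ± 0.54 on the log2 scale. Kcnc1 had 0.606 to 1.59 CPM in the 6 libraries of flow cell 2 with skeletal muscle transcripts, against 0 to 0.324 CPM in the other 18. Kcnt2 was lower by -1.58 ± 0.2 and Kcnj2 by -0.95 ± 0.21. The 20 higher genes had transcripts of a median GC content of 57.4%, the 13 lower genes of 47.7%. Across the 49 genes the flow cell difference and GC content had a Spearman rho of 0.78, a description over genes that share the same 24 libraries, and across 15288 genes rho was 0.79. With a correction of each library for GC content 11 of the 49 genes differed, against 41.1% of all genes tested, 3 higher and 8 lower, and 9 of these were among the 33. Kcnh2 was then at 0.45 and Kcng2, the gene of highest GC content at 71.6%, at -1.23.

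**Figure D5:**
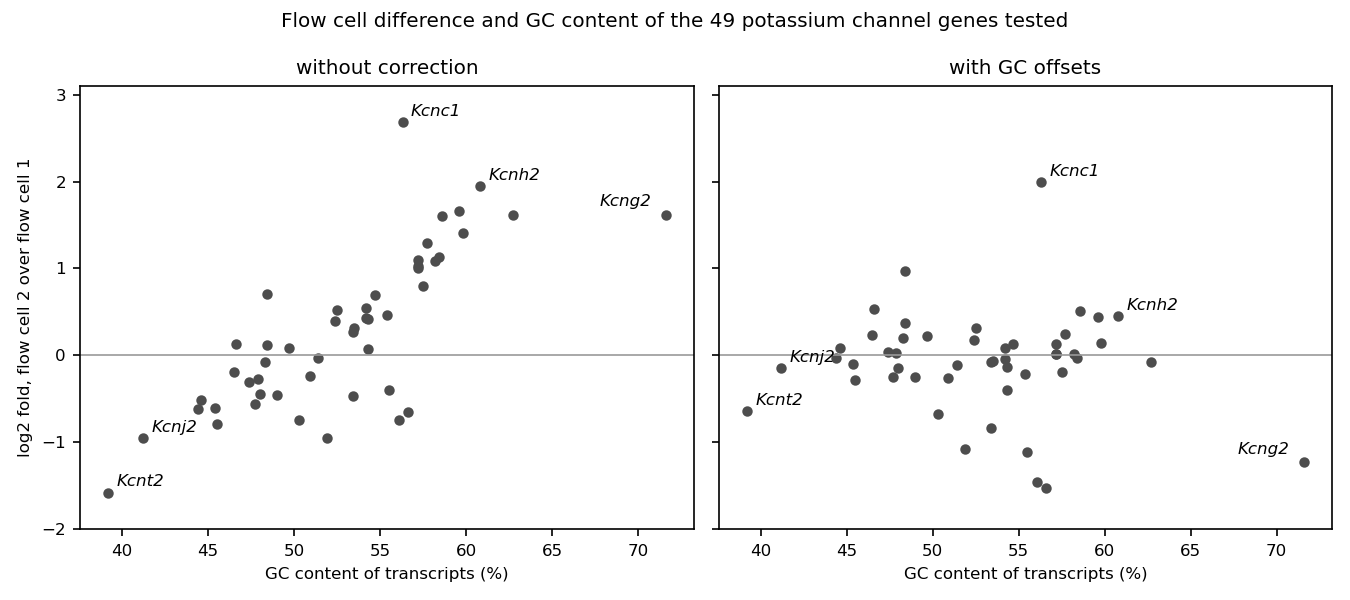
Log2 fold change of flow cell 2 over flow cell 1 (vertical axis) against the GC content of the transcripts (horizontal axis, %) for the 49 tested potassium channel genes, without a correction on the left and with GC offsets on the right. The slope on the left (rho 0.78) is seen from Kcnt2 at 39.2% to Kcnh2 at 60.8%, and on the right most genes lie near 0, with Kcng2 at -1.23.

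Differences between the times of day also ran with GC content. Across the 49 genes Spearman's rho between the fold change and GC content was -0.44 for sedentary mice and -0.52 for exercised mice, against -0.69 and -0.38 over all genes, and it was 0.17 for exercise at each time. The part of GC content in single results beyond the corrected values given above was not tested.

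Several Kv and Kir genes were high in the 6 libraries with skeletal muscle transcripts. Of the 49 genes 6 were higher in each of these libraries than in each of the other 18, against 2.26% of all genes tested, among them Kcnc1, Kcnc4, Kcnj11 and Kcnq1, of which all but Kcnj11 are named here after their values were seen. Kcnc1 had 0.606 to 1.59 CPM in the 6 libraries and 0 to 0.324 CPM in the other 18. Kcnj11 had 99.2 to 118 CPM in the 6 libraries and 9.02 to 70.4 CPM in the other 18. Kcna5 had 13.8 to 34.9 CPM in the 6 libraries and 6.2 to 26.1 CPM in the other 18, and the difference of its mean log2 CPM from the other 6 libraries of flow cell 2 was 1.09. These 6 libraries include 3 of ZT0-EX and 1 of each other group, so group and tissue composition overlap in them.

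Genes that work with these channels were counted in the same way. Of 12 partners outside the Kcn symbols 8 were tested, and the edgeR test called 0 in each of the 7 comparisons of exercise and time of day. It called between 0% and 13.7% of all genes tested there. At most 4 of the 8 had an unadjusted p below 0.05 in a comparison, for the average time of day, where 32.6% of all genes tested did. There DESeq2 called 3 of the 8 and limma-voom 1. DESeq2 also called 2 for the time of day in sedentary mice and 1 for the average of exercise. Among them, Abcc9, the regulatory subunit of ATP-sensitive channels, averaged 147 CPM in ZT12-EX, 154 CPM in ZT12-SED, 158 CPM in ZT0-EX and 107 CPM in ZT0-SED. Their median fold change with exercise was 0.4 at ZT12 and 0.46 at ZT0. Of 22 genes of other cardiac currents the edgeR test called 0 in each pairwise comparison, against 0.294% to 5.2% of all genes tested. Between 3 and 6 of the 22 had an unadjusted p below 0.05, against 10.4% to 33% of all genes tested. DESeq2 called at most 3 of them in a pairwise comparison and limma-voom at most 1. Averaged over both treatments, 4 of the 22 were lower and 1 higher at ZT12, where 13.7% of all genes tested passed. The gap junction gene Gja1 (-0.68 ± 0.19, adjusted p = 0.0219) and the pacemaker channel Hcn2 (-0.65 ± 0.17, adjusted p = 0.0162) were among the lower.

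Of 11 transcription factors listed for their links to cardiac potassium channel genes or the clock, 2 passed for exercise at ZT0, where 1.08% of all genes tested did. The list was drawn up with earlier results of these data known and holds genes linked to the clock such as Dbp. Its counts are therefore no measure of an excess over all genes. Klf15, known in mice to act on Kcnip2, rose to a mean of 47.4 CPM in ZT0-EX, against 17.9 CPM in ZT0-SED (1.4 ± 0.21, adjusted p = 0.000317). Kcnip2 itself did not pass in that comparison, with means of 121 CPM in ZT0-EX and 117 CPM in ZT0-SED. Its exercised hearts were higher on flow cell 2 and lower on flow cell 1. Irx3, a homeodomain factor of the fast conduction system in mouse heart, fell at both times, to 7.75 CPM in ZT12-EX against 14.5 CPM in ZT12-SED (-0.99 ± 0.19, adjusted p = 0.0186), and to 10.1 CPM in ZT0-EX against 16.7 CPM in ZT0-SED (-0.84 ± 0.19, adjusted p = 0.0215). For the time of day, 4 of the 11 were higher and 1 lower at ZT12 in sedentary mice, where 5.2% of all genes tested passed, and 3 were higher and 1 lower in exercised mice, where 1.65% did. Dbp averaged 65.8 CPM in ZT12-EX and 73 CPM in ZT12-SED, against 8.31 CPM in ZT0-EX and 10.6 CPM in ZT0-SED (2.84 ± 0.29, adjusted p = 1.05e-06 in exercised mice and 2.48 ± 0.29, adjusted p = 6.89e-06 in sedentary mice). Klf15 was also higher at ZT12 in sedentary mice (0.97 ± 0.21, adjusted p = 0.00761). These factors' part in the potassium channel results was not tested.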

How the data were processed

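Gene expression was measured by poly-A RNA-seq in 24 hearts, and the labels name the 6 samples of a group as separate biological replicates. The authors deposited raw counts per gene for each library, made with Trimmomatic 0.39, HISAT2 2.2.1 and featureCounts 2.0.1 on the GRCm39 build, per the submitters' processing notes. Neither the annotation release nor the use of strand in counting is stated in these sources, so reads of a gene and of an antisense partner such as Kcnq1ot1 beside Kcnq1 cannot be told apart. Identifiers were given symbols by Ensembl ID, and 257 identifiers without a symbol held 0.00128% of the counts.

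Genes passing edgeR's filterByExpr (15294) were scaled by TMM and tested with robust quasi-likelihood tests (edgeR 4.0.16, limma 3.58.1, R 4.3.3) on all 24 libraries, with terms for group and flow cell, 19 residual degrees of freedom and Benjamini-Hochberg adjustment over all genes tested. An adjusted p below 0.05 counted as passing. Printed CPM have no prior count, and log2 CPM used a prior count of 2. Residuals of log2 CPM had a median SD of 0.474 at ZT12 and 0.296 at ZT0, and a shared estimate of the spread was used. Over 60 replicate pairs the chi-square per degree of freedom was never below 14.6, so no library was a copy of another of its group. GC offsets were lowess curves per library (span 0.3). Alternatives included DESeq2 1.42.0, limma-voom, other filters, other terms and subsets of libraries. Tables and figures used Python 3.11.15, pandas 2.3.3 and matplotlib 3.10.9, and the test was checked on simulated data.

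Genes named singly were those past the threshold in any comparison, Kcna5, Kcnip2 and Kcnh2, and the 3 of highest level per kilobase in each class. The members and lists were chosen with earlier results of these data known. Some genes are not reported here.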

Additional observations from a re-analysis of the deposited data

Results flagged for a closer look

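Of 80 groups of 6 hearts examined, for 20 potassium channel genes, 8 held a heart whose gap to the nearest other heart as a share of the group's range exceeded Dixon's 95% critical value. Chance flags about 1 in 20 groups. Kcne1 had 7.46 CPM in ZT12-EX 4, against 2.03 to 3.41 CPM in the other 5 hearts of the group. Kcnc2 had 3.75 CPM in ZT12-SED 3, against 1.2 to 1.86 CPM in the others. Kcnma1 had 1.09 CPM in ZT0-EX 4, against 0.0528 to 0.433 CPM. Kcnip1 had 0.726 CPM in ZT0-SED 3, against 0.12 to 0.26 CPM. Kcnt1 had 1.74 CPM in ZT12-SED 6, against 0.192 to 0.649 CPM. Kcnj11 had 105 CPM in ZT0-SED 6, against 45.9 to 66.2 CPM. In ZT12-SED 1, Kcnj5 was low at 48 CPM, against 56.2 to 60 CPM, and Kcnn2 was high at 17.6 CPM, against 7.64 to 11.3 CPM. ZT0-EX 4, ZT12-SED 6 and ZT0-SED 6 are among the 6 libraries with skeletal muscle transcripts, and ZT12-EX 4 and ZT12-SED 1 are among the 3 least correlated with the rest. The part of these properties in the values was not tested.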

How the results depend on the processing

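The number of potassium channel genes called moved with the libraries used. Called with all libraries were 1 for exercise at ZT0, 0 at ZT12, 2 for time of day in sedentary mice, 2 in exercised mice, 2 for average exercise and 8 for average time of day. The shares of all genes tested were 1.08%, 0.294%, 5.2%, 1.65%, 2.24% and 13.7% in the same order. Flow cell 2 alone gave 0 for each. Flow cell 1 alone gave 0 for exercise at ZT0, 18 for sedentary mice, 1 for exercised mice, 0 for average exercise and 25 for average time of day. Without the 6 libraries with skeletal muscle transcripts, the counts were 0 for exercise at ZT0, 12 for sedentary and 0 for exercised mice. Without the 3 libraries least correlated with the rest they were 2 for exercise at ZT0, 1 for sedentary mice, 6 for exercised mice, 6 for average exercise and 13 for average time of day. The compared groups alone gave 2 for exercise at ZT0, 0 for sedentary and 0 for exercised mice. DESeq2 gave 1 for exercise at ZT12, 9 for sedentary mice, 4 for average exercise and 13 for average time of day. Without a flow cell term, the counts were 0 for sedentary mice, 0 for exercised mice, 0 for average exercise and 2 for average time of day. No filter on low counts gave 1 for exercise at ZT12 and 1 for exercised mice, GC offsets gave 1 for exercise at ZT12, and limma-voom gave 1 for average exercise. A filter of 1 CPM in 6 libraries gave 1 for exercised mice, 1 for average exercise and 5 for average time of day. Counted over all genes tested, the calls moved too in several of these settings. For sedentary mice they numbered 795 in the edgeR test on all libraries and 2845 with DESeq2. Flow cell 1 alone gave 6552 for sedentary mice and flow cell 2 alone 35. For exercised mice they numbered 252 in the edgeR test on all libraries, and 1017 without the 3 least correlated libraries. For average exercise limma-voom gave 338, close to the 342 of the edgeR test. The causes were not tested. The difference between exercise effects gave 0 potassium channel genes in all alternatives run.

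With the replicate number as a block, 1 gene was called in exercised mice (Kcnc2), 10 for average time of day, and the counts of the other comparisons were unchanged. Same-numbered hearts had residual correlations from -0.57 to 0.73, with the highest between hearts numbered 6. The hearts numbered 6 of all groups were among the 6 libraries with skeletal muscle transcripts. Whether the numbers pair the samples cannot be settled from these correlations.

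Signs reversed in comparisons of Kcna5, Kcnip2 and Kcnh2 that had not passed. With exercise at ZT0, Kcnip2 was -0.15 on flow cell 1 alone. Kcnh2 stood at 0.01 in the edgeR test on all libraries, so its changes of sign there are small moves around 0. It was 0 with size factors, 0 with DESeq2, 0 without a flow cell term, -0.01 in the compared groups alone, -0.05 on flow cell 2 alone and -0.01 with GC offsets. With exercise at ZT12, Kcna5 was -0.06 without the 6 libraries rich in skeletal muscle transcripts, -0.01 on flow cell 1 alone and -0.3 with GC offsets, Kcnip2 was 0.2 on flow cell 1 alone, and Kcnh2 was -0.07 on flow cell 2 alone, -0.22 without the 3 least correlated libraries and -0.06 with GC offsets. In sedentary mice, Kcnip2 was 0.2 on flow cell 2 alone, and Kcnh2 was 0.2 without a flow cell term, 0.53 on flow cell 2 alone, 0.17 without the 3 least correlated libraries and 0.35 with GC offsets. On flow cell 1 alone both passed as lower at ZT12, Kcnip2 at -0.85 (adjusted p = 0.0292) and Kcnh2 at -1.31 (adjusted p = 0.0165). In exercised mice, Kcnh2 was 0.22 without a flow cell term, 0.5 on flow cell 2 alone and 0.29 with GC offsets. Another scaling moved the median fold change of all genes by at most 0.011. Genes under about 1 CPM rest on few reads, and their differences are limited by depth.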
